A study of Mus musculus with 6 samples.

Results

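Pf4, Itga2b, Gp1bb, Gp9, Vwf, Selp and Rap1b are 7 megakaryocyte and platelet genes, taken by symbol from the 32285 genes of the count matrices. They were followed in single hematopoietic stem and progenitor cells (HSPCs) of mouse bone marrow (BM). Recipients were female C57BL/6J mice that carried the CD45.1 allele, 8 to 12 weeks old. A total of 3 mice received PBS and 3 received 1000000 cells of C1498, a murine acute myeloid leukemia (AML) line that carries CD45.2, and BM was taken at day 21. The sorted population was CD45.1+ LSK (Lin- cKit+ Sca1+), that is host cells by the CD45 allele and not C1498 blasts. C1498 is 1 transplanted line, and p-values measure only the spread between these sorted samples.

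Megakaryocytes are the large marrow cells that shed platelets. Their surface carries the von Willebrand factor receptor, built from the glycoproteins Ib and IX, and the fibrinogen receptor αIIbβ3, which the small GTPase Rap1 switches into its active form. Their granules store platelet factor 4, von Willebrand factor and P-selectin. In textbook schemes MPP-2 is the multipotent progenitor with the strongest megakaryocyte and erythroid output, and part of the HSC pool is already biased to platelets. Itga2b is the α subunit of the fibrinogen receptor, Gp1bb and Gp9 are subunits of the von Willebrand factor receptor, and Vwf is its ligand. Pf4 is a granule chemokine, Selp is an adhesion molecule of granules and endothelium, and Rap1b is the main Rap1 GTPase of platelets.

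On GRCm38, the build in the submitters' processing notes, the GENCODE vM21 annotation places Pf4 at chr5:90772435-90773383, Gp9 at chr6:87778072-87779768, Vwf at chr6:125546774-125686679 and Selp at chr1:164115264-164150026, all on the plus strand. Rap1b lies at chr10:117813871-117846035, Itga2b at chr11:102453297-102470122 and Gp1bb at chr16:18620317-18622403, all on the minus strand. All 7 are protein-coding. Gp1bb overlaps Sept5 (chr16:18620502-18629954) on the same strand, so its counts are uncertain.

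RefSeq promoter windows on GRCm38.p6, 300 bases each, were matched for 6 of the 7 genes. GATA and ETS factors are known regulators of megakaryocyte genes, so the windows were searched on both strands for letters of each. For the former the letters were AGATAA and, in their place, TGATAA. For the ETS family they were AGGAAG and, in their place, CGGAAG. All 6 windows held an ETS match and 1, that of Pf4, held a GATA match. The Pf4 matches began at base -9 and base 37 from the start and did not overlap. Of all 32851 windows, 46.5% held an ETS match, 18.6% a GATA match and 7.7% both. A match is a description of letters and not a bound site. The 150 bases before the start are shown for the 3 members in which no annotated exon overlaps them, 2 granule genes and 1 receptor subunit with unlike class patterns, with the ETS letters in capitals (here read on the other strand), 5′ to 3′ on the plus strand.
Pf4, chr5:90772285-90772434: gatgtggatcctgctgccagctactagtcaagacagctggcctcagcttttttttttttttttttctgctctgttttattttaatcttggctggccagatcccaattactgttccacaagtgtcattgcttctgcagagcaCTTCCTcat
Gp9, chr6:87777920-87778069: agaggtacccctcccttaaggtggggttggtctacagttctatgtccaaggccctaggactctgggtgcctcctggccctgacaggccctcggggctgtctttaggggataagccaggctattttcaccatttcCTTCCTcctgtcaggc
Selp, chr1:164115114-164115263: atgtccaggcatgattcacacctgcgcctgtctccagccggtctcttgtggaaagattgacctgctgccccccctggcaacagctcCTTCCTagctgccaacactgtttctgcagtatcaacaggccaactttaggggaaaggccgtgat

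The deposited cell table lists 16822 cells of 5 libraries, between 693 and 6838 per library, and none of AML replicate 2. AML is therefore 2 libraries here, of which AML replicate 1 holds 693 cells and only 23 cells of the HSC class. Kept cells carried a median of 2393 to 9586 UMIs (unique molecular identifiers, 1 per captured transcript) per library. Of the kept cells, 5496 share their barcode with another library's matrix, mostly with AML replicate 2, and 47 have more UMIs under that barcode elsewhere. Without those 47 cells no member gained or lost a call, and no member turned its direction between HSC and MPP-2. The authors' 4 classes rest on module scores of expression, and the sources used here do not say whether the members are in those signatures. Class and cluster levels are therefore descriptions, with no test. Against fixed markers, 10 of 10 HSC markers and 8 of 8 MPP-3 markers were highest in their own class, as were 6 of 8 MPP-4 markers. Only 4 of 8 MPP-2 markers were highest in MPP-2, and the MPP-2 class is named by its label throughout. Levels are in CPM, the UMIs of a gene per 1000000 UMIs of the summed cells of a library, given as mean ± SD over libraries.

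Pf4 and Gp1bb were highest in the MPP-2 class in every library, whereas Gp9 and Rap1b were higher in the HSC class than in MPP-2 in every library. Pf4, the granule chemokine, read 228, 156 and 249.98 CPM in MPP-2 of PBS replicates 1 to 3 and 167 and 242 CPM in AML replicates 1 and 3. In the HSC class the same libraries read 58.3, 84.4, 61.4, 48.9 and 70.9 CPM. The MPP-2 values lay above all HSC values, at 209 ± 44.2 against 64.8 ± 13.5 CPM (n = 5). MPP-3 and MPP-4 had 12.0 ± 7.21 and 15.9 ± 7.12 CPM, which did not differ beyond their spread.

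The receptor subunits went different ways. Gp1bb had 5.54, 5.10, 5.604, 2.18 and 2.99 CPM in MPP-2, in the same order of libraries, from 2 to 64 UMIs per library. It had 0.732 ± 0.735 CPM in HSC, 0.562 ± 0.707 in MPP-3 and 0.0240 ± 0.0538 in MPP-4, values that rest on 13, 5 and 1 UMIs in all. Gp9 had 64.5, 48.5, 56.1, 16.3 and 51.7 CPM in HSC and 52.0, 27.9, 42.1, 10.9 and 28.0 CPM in MPP-2. HSC was thus the higher class in 5 of 5 libraries, although the SDs of 47.4 ± 18.4 and 32.2 ± 15.7 CPM overlapped and the HSC value of AML replicate 1 was 1 UMI. Where the classes were rebuilt from the fixed markers, which put 50.4% of cells in the deposited class, Gp9 was higher in MPP-2 in 5 of 5 libraries (34.0 ± 11.03 CPM in HSC and 56.3 ± 22.9 in MPP-2). With these rebuilt classes neither Pf4 nor Gp1bb was higher in MPP-2 in every library. Without the richest cell of each library and class Gp9 was higher in HSC in 4 of 5, but its mean log2 ratio of HSC over MPP-2 turned negative. Gp9 in MPP-4 stood at 20.4 ± 5.81 CPM and in MPP-3 at 8.67 ± 6.88 CPM. Itga2b had 18.2 ± 8.43 CPM in HSC and 13.5 ± 6.23 in MPP-2, higher in HSC in 3 of 5 libraries. The AML replicate 1 value of 32.6 CPM rests on 2 UMIs in 23 cells, and without that library the mean log2 ratio of HSC over MPP-2 turned from 0.49 to -0.13.

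The ligand and adhesion genes were sparse. Vwf had 7.24, 6.27, 7.33 and 8.54 CPM in HSC of the 4 libraries that held Vwf UMIs there, and 0 UMIs in the 23 cells of AML replicate 1. Its MPP-2 values of 2.68, 0.972, 3.63, 1.09 and 2.35 CPM were lower in those 4 libraries. In MPP-4 it stood at 0.260 ± 0.180 CPM and in MPP-3 at 0.891 ± 0.700. Selp had 8.86 ± 5.603 CPM in HSC and 6.60 ± 1.60 in MPP-2. It had 6.02 ± 2.37 CPM in MPP-3 and 4.46 ± 0.855 in MPP-4, and no neighbours in that order differed beyond their spread. In PBS alone Selp had 4.91 ± 1.41 CPM in HSC and 5.54 ± 0.783 in MPP-2. In AML it had 14.8 ± 2.18 and 8.19 ± 0.733 CPM, and the HSC value of AML replicate 1 was 1 UMI. Rap1b, the GTPase, was the most even member. It had 137, 124, 101, 97.9 and 120.0 CPM in HSC and 116, 101, 76.1, 75.1 and 95.7 CPM in MPP-2. The mean log2 ratio of HSC over MPP-2 was 0.33 ± 0.063, with HSC higher in 5 of 5 libraries.

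**Figure D1:**
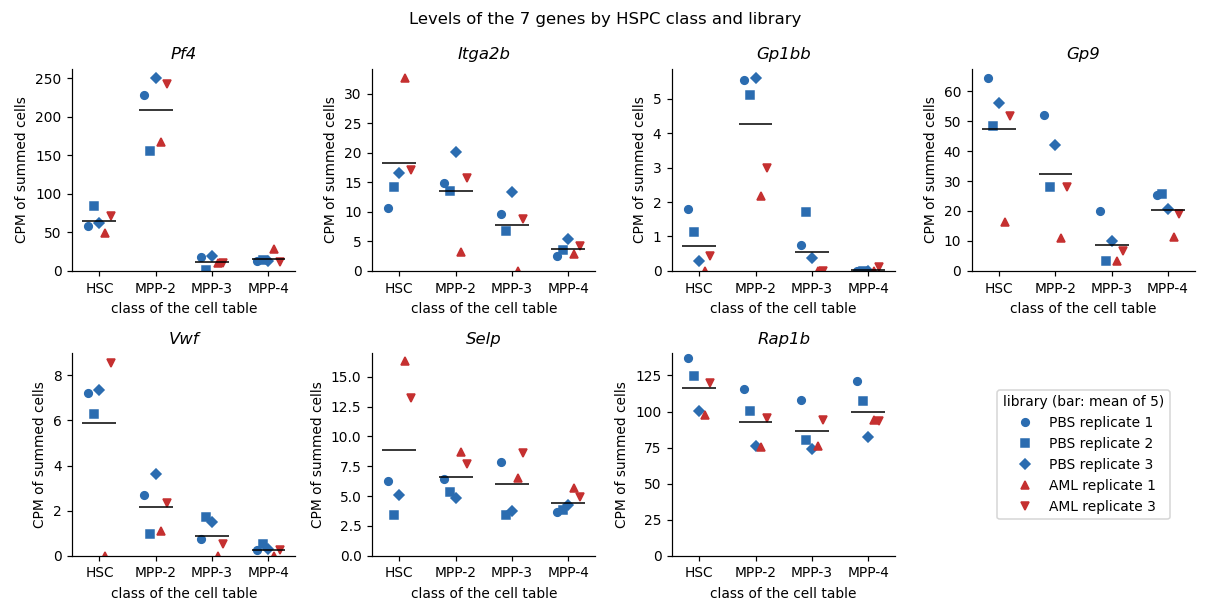
CPM of each gene (y axis, linear from 0) in the 4 classes (x axis), 1 point per library (blue PBS, red AML) and a bar at the mean of 5 libraries. Pf4 and Gp1bb stand highest in MPP-2, Gp9, Vwf and Rap1b in HSC, and the Itga2b point at 32.6 CPM in HSC is the 2 UMIs of AML replicate 1.

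Over the 7 genes, 2 (Gp9, Rap1b) were higher in HSC than in MPP-2 in every library and 2 (Pf4, Gp1bb) were lower in every library. Of 11905 genes with enough counts in both classes, 27.6% were higher in HSC in every library and 12.8% were higher in MPP-2. On the log2(CPM + 1) scale 5 members had a higher mean in HSC: Itga2b, Gp9, Vwf, Selp and Rap1b.

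The classes differed in cell cycle phase. By the authors' phase calls 15.1% of HSC cells and 88.5% of MPP-2 cells were in S or G2M, and the cells carried a median of 3397.5 and 6709 UMIs. Among G1 cells the medians were 3243 and 3500.5 UMIs. G1 cells of both classes were numerous enough in 3 libraries (PBS replicates 1 and 3 and AML replicate 3). There, 817 to 1178 and 471 G1 HSC cells stood against 180 to 211 and 126 MPP-2 cells in PBS and AML.

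Within G1 the order turned for Gp9. Its levels were 69.1, 56.5 and 51.0 CPM in HSC and 122, 98.0 and 102 CPM in MPP-2, with no overlap between the classes. The mean log2 ratio was -0.86 ± 0.11, against 0.52 ± 0.30 over all cells of the same 3 libraries. Itga2b had 10.7, 14.8 and 14.0 CPM in HSC and 19.1, 42.2 and 52.7 CPM in MPP-2. Its mean log2 ratio was -1.36 ± 0.53, against -0.19 ± 0.28 over all cells of these libraries, where HSC was already lower in 2 of 3. Pf4 reached 398, 408 and 904 CPM in G1 cells of MPP-2 and 61.3, 61.9 and 70.7 CPM in those of HSC. Rap1b was about level in PBS replicate 1, at 138 CPM in HSC and 135 CPM in MPP-2, and higher in MPP-2 in PBS replicate 3 (101 and 128 CPM) and AML replicate 3 (114 and 221 CPM). Vwf in G1 had 7.77 ± 1.62 CPM in HSC and 12.8 ± 7.90 in MPP-2, higher in MPP-2 in 2 of 3 libraries. Selp had 7.49 ± 3.06 and 8.12 ± 5.84 CPM, a difference within the spread. No member was higher in HSC in all 3 libraries and 4 (Pf4, Itga2b, Gp1bb, Gp9) were higher in MPP-2 in all 3, beside 30.5% and 14.4% of the same 11905 genes. Over all cells of these 3 libraries 3 members (Gp9, Vwf, Rap1b) were higher in HSC in every library and 2 (Pf4, Gp1bb) in MPP-2, beside 56.0% and 20.7% of genes.

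Among S and G2M cells, by contrast, Gp9 stayed higher in HSC in 4 of 4 libraries, at 51.1 ± 4.47 against 33.4 ± 11.2 CPM. Vwf did so too, at 8.70 ± 4.29 against 1.84 ± 0.603 CPM. In MPP-2 itself, with every library that had enough cells, Gp9 had 88.7 ± 38.4 CPM in G1 over 4 libraries. AML replicate 1 was the lowest of them, at 33.2 CPM. In S and G2M it had 28.6 ± 14.5 CPM over 5 libraries. Counted as UMIs per cell in place of CPM, Gp9 had 0.217 ± 0.120 in HSC and 0.268 ± 0.150 in MPP-2, and Rap1b 0.523 ± 0.274 and 0.780 ± 0.504. Only Vwf then kept a higher mean log2 ratio in HSC. At equal depth, with each cell thinned to 2000 UMIs, Gp9 (49.3 ± 16.9 against 34.5 ± 18.6 CPM), Rap1b and Selp were each higher in HSC in 5 of 5 libraries. Depth and phase move with class, and their part in the class difference was not tested. Within cluster 0 of the cell table Gp9 had 61.7 ± 10.1 CPM in HSC and 73.7 ± 21.4 in MPP-2 over 4 libraries, whereas Vwf was higher in HSC in all 4, at 9.40 ± 1.35 against 6.33 ± 3.18 CPM. There 5 members were higher in MPP-2 in all 4 libraries. By the mean log2 ratio 6, Rap1b among them, were higher in MPP-2.

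**Figure D2:**
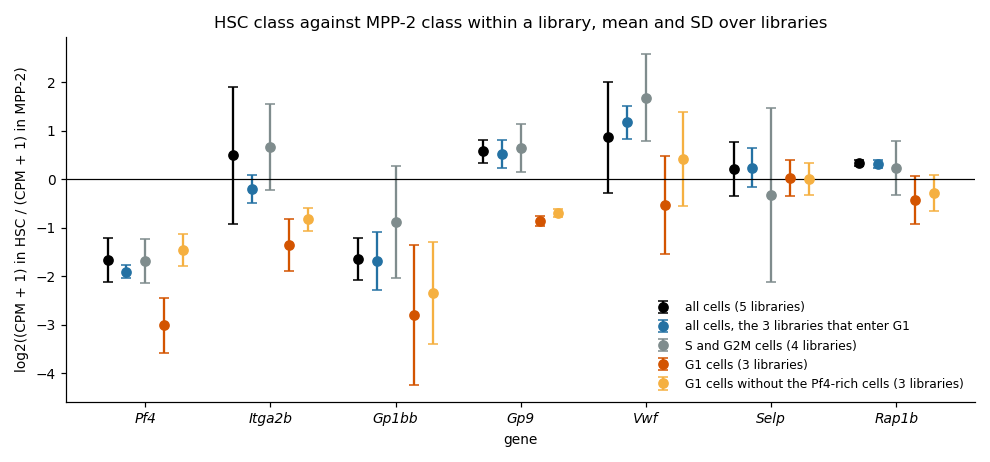
Mean and SD over libraries of the log2 ratio of HSC over MPP-2, with 1 CPM added (y axis), for each gene (x axis) in all cells of 5 libraries, in all cells of the 3 libraries that enter G1, in S and G2M cells, in G1 cells and in G1 cells without those rich in Pf4. In those 3 libraries Gp9 lies at 0.52 over all cells and at -0.86 in G1, and Pf4 lies below 0 in all 5 sets.

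Across the 9 clusters of the cell table, 6 of 7 genes were highest in cluster 0 among clusters 0 to 5. Cluster 0 holds 6367 cells, among them 74.0% of the HSC class and 40.4% of the MPP-2 class, and it took 30.9% of all UMIs. It held 84.4% of Pf4 UMIs, 86.2% of Gp1bb, 85.0% of Vwf, 62.5% of Itga2b, 59.2% of Gp9 and 47.3% of Selp UMIs, but 39.5% of Rap1b UMIs. Pf4 in cluster 0 ranged from 224 to 340.1 CPM over 5 libraries and in cluster 1 from 16.7 to 28.8 CPM, without overlap. Rap1b was highest in cluster 5, at 134 ± 20.1 CPM over 4 libraries, next to 123 ± 17.9 CPM in cluster 0, a gap smaller than either SD. Cluster 0 also had the highest summed level of the fixed megakaryocyte markers (90.3 CPM) and of the HSC markers (935 CPM). For the megakaryocyte markers cluster 8 came next, at 55.0 CPM with 7 of the 10 at 0 UMIs. Of those 10 megakaryocyte markers Gp6, the collagen receptor, was at 0 UMIs in all 5 libraries.

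A single cell decided one cluster value. In cluster 4 Pf4 had 119 CPM in AML replicate 3 and 4.42 CPM at the lowest. Of its 518 UMIs in that cluster 452 were in 1 cell, and without it the pooled level fell from 70.3 to 8.96 CPM.

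**Figure D3:**
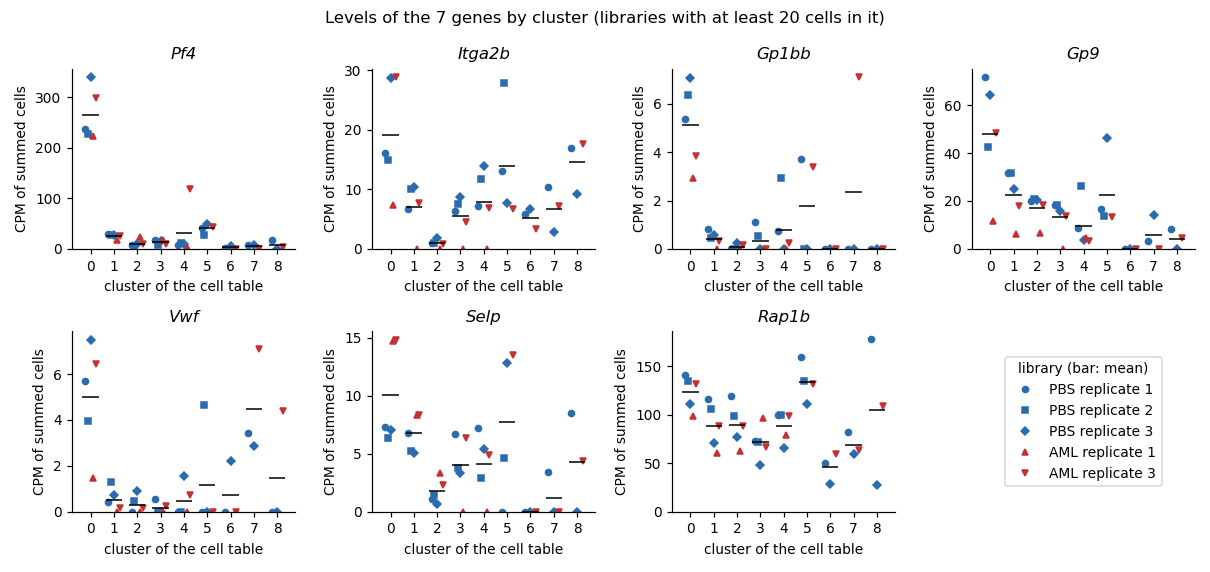
CPM of each gene (y axis, linear from 0) in clusters 0 to 8 (x axis), 1 point per library with at least 20 cells of the cluster and a bar at their mean. All genes but Rap1b stand highest on average in cluster 0 among clusters 0 to 5, and the single Pf4 point at 119 CPM in cluster 4 is AML replicate 3.

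The share of cells with a Pf4 UMI did not follow the Pf4 level. Each cell of at least 2000 UMIs was thinned to 2000, which left out 205 shallower cells, all in PBS replicates 1 and 3. Pf4 was then found in 10.7 ± 1.62% of HSC cells and 9.29 ± 2.42% of MPP-2 cells, a difference within the spread (without AML replicate 1, 10.1 ± 1.09% and 10.2 ± 1.40%), and in 2.29 ± 1.69% and 2.29 ± 0.430% of MPP-3 and MPP-4 cells. In cluster 8, led by T and NK markers, a type that should lack Pf4, it was found in 1 of 107 thinned cells (0.935%, exact binomial 95% interval 0.0237 to 5.10%). Before thinning these cells had a median of 3709 UMIs, against 3429 in HSC and 6722 in MPP-2. Gp9 was found in 8.59 ± 2.77% of HSC and 6.07 ± 3.11% of MPP-2 cells and in 0 of 107 cells of cluster 8, which allows a share of up to 2.80% (3 counts of 107). Pooled over libraries, Vwf was found in 42 of 3079 HSC cells (1.36%, 0.985 to 1.84%), 34 of 4824 MPP-2 cells (0.705%, 0.489 to 0.984%) and 8 of 6370 MPP-4 cells (0.126%, 0.0542 to 0.247%). The HSC interval lay above that of MPP-4, while cluster 8, with Vwf in 1 of 107 cells, had an interval that covered all 3 shares. Itga2b was found in 2.53% of HSC and 3.03% of MPP-2 cells, both inside the interval of cluster 8 (1.87%, 0.227 to 6.59%). As a mean over libraries Itga2b was found in 3.54 ± 2.95% and 2.66 ± 1.03%, and without AML replicate 1 (2 of 23 HSC cells) in 2.26 ± 0.725% and 3.09 ± 0.405%, which turned the order. Selp was found in 1.23% of HSC and 1.10% of MPP-2 cells, under the 2.80% that 0 of 107 cells allows by the same limit. Rap1b was found in 22.5 ± 3.00% of HSC cells, in 16.1 to 18.1% of the other classes, and in 21.5% of cluster 8, a level shared by the T and NK cluster. Unthinned, Pf4 was found in 18.5 ± 7.74% of HSC and 18.1 ± 6.80% of MPP-2 cells and Gp9 in 16.4 ± 7.42% and 17.2 ± 8.83%. Intervals and limits cover counting error only, and cluster 8 was not free of megakaryocyte markers.

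The Pf4 level was thus carried by few cells. The 930 MPP-2 cells with Pf4 held 8.72 UMIs each on average, and the 521 such HSC cells held 1.58. Cells with 10 or more Pf4 UMIs, a cut set after the values were seen, numbered 114 of 16822 and held 69.0% of all Pf4 UMIs. Of these Pf4-rich cells 110 were in MPP-2, 3 in HSC and 1 in MPP-3, and 109 were in cluster 0. By phase 48 were in S, 46 in G2M and 20 in G1. They made up 0.570, 0.535 and 0.796% of the cells in PBS replicates 1 to 3 and 0.577 and 0.783% in AML replicates 1 and 3, so that the ranges of PBS and AML overlapped. Without them Pf4 stood at 62.1 ± 12.2 CPM in HSC and 41.9 ± 10.4 CPM in MPP-2, higher in HSC in 5 of 5 libraries, a change of order that follows in part from choosing the cells by Pf4. In G1 cells the order was kept without them, at 63.5 ± 6.42 CPM in HSC and 179 ± 39.1 in MPP-2.

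The other members were high in the Pf4-rich cells too, which did not enter their choice. In the 3 libraries with at least 20 such cells, all 6 other members were higher there than in the remaining cells in 3 of 3 libraries, beside 11.2% of 14364 genes. Gp1bb had 65.2 ± 8.65 CPM against 1.30 ± 0.680, Vwf 49.1 ± 13.9 against 1.80 ± 0.531 and Itga2b 115 ± 50.1 against 10.1 ± 2.18. Gp9 had 223 ± 58.3 against 29.9 ± 9.21 CPM and Rap1b 397 ± 88.6 against 96.3 ± 19.1. Selp differed least, at 9.34 ± 2.21 against 5.87 ± 1.55 CPM, from 8 UMIs in the Pf4-rich cells.

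Of the 28 surface and granule genes fixed for the pathway, 16 were higher in the Pf4-rich cells in all 3 libraries and 4 (Gp6, Tubb1, Mpig6b and Myl9), with no UMI in them, in none. Named after their values were seen, Cavin2, a caveolar protein of platelets, had 95.1 ± 16.4 against 3.23 ± 1.75 CPM, and Treml1, an α-granule receptor, 72.2 ± 11.7 against 2.76 ± 1.15. Of 12 megakaryocyte transcription factors 8 were higher in all 3 libraries. Gata1 had 31.3 ± 11.3 against 5.71 ± 2.95 CPM and its cofactor Zfpm1 142 ± 44.9 against 28.7 ± 6.87. Lyl1 was lower in all 3, at 39.8 ± 16.8 against 105 ± 22.0 CPM, and Nfe2 was higher in 1 of 3, at 52.2 ± 18.5 against 56.4 ± 16.0. Of 16 genes of integrin activation and the Rap1 pathway 3 were higher in all 3 libraries and 7 in none. Beside these and the marker counts that follow, 11.2% of 14364 genes were higher in all 3 libraries and 37.7% in none, so the share of integrin and Rap1 genes was near that of all genes. Tubb1 is the β-tubulin of platelets, and Ppbp, another platelet chemokine, had 4 UMIs in these cells. Of the 10 fixed endothelial markers 9 were higher in the Pf4-rich cells in no library and Tie1 was higher in all 3 (12.9 ± 4.50 against 7.70 ± 1.42 CPM). Egfl7 held most of their UMIs, at 142 ± 18.6 against 303 ± 23.8 CPM. The defining markers Cdh5, Kdr, Plvap, Cldn5, Ptprb and Stab2 had 0 UMIs in the Pf4-rich cells and at most 1.21 CPM in the others. Of the 10 erythroid markers 6 were higher in no library, among them Car1 (4.70 ± 2.20 against 83.5 ± 41.5 CPM), and 2 in all 3, Klf1 (10.4 ± 9.11 against 2.39 ± 0.655) and Epor (14.1 ± 7.45 against 1.60 ± 0.683), from 9 and 12 UMIs. Of the 10 HSC markers 6 were higher in no library, among them Hlf (29.4 ± 16.7 against 124 ± 25.8 CPM), and 3 in all 3, Hoxb5, Ctnnal1 and Pdzk1ip1 (168 ± 2.15 against 77.4 ± 27.9). Pf4-rich cells had a median of 6889 to 8808 UMIs against 4001 to 5894 in the others. Whether some of them were doublets was not tested.

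**Figure D4:**
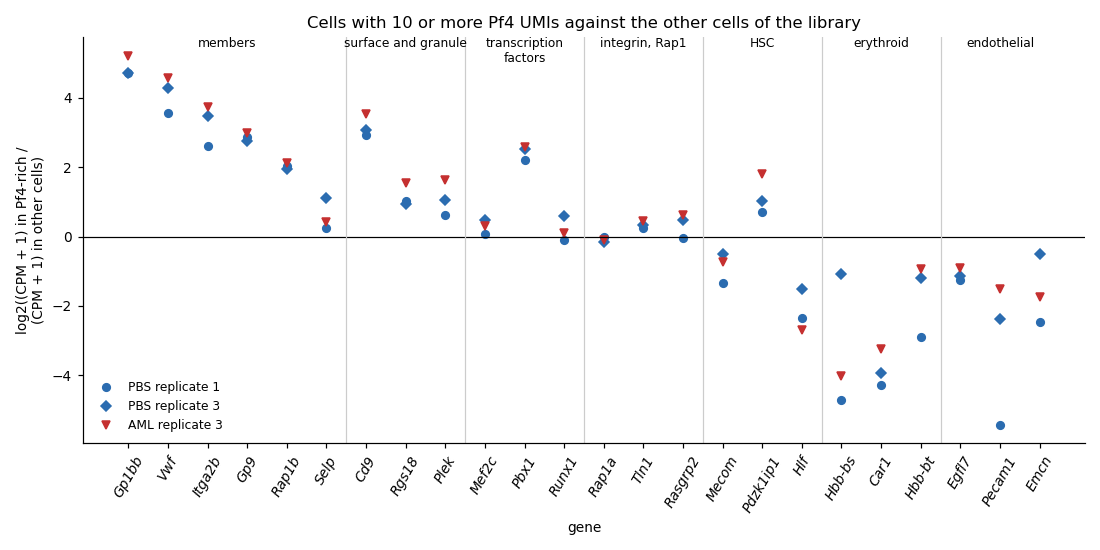
Log2 ratio, with 1 CPM added, of cells with 10 or more Pf4 UMIs over the other cells of the same library (y axis) for the 6 other members and the 3 genes of highest level in each of 6 fixed lists (x axis), 1 point per library. The 6 members lie above 0 in all 3 libraries, Pdzk1ip1 of the HSC list lies above 0, and Mecom, Hlf and the 3 genes each of the erythroid and endothelial lists lie below 0.

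Cells with several members were more frequent in HSC and MPP-2 than in MPP-3 and MPP-4, where most single members were also found less often. No share expected from the single members was worked out. Counting the 6 members other than Rap1b in thinned cells, 2 or more were found in 3.05% of HSC cells (94 of 3079), 3.88% of MPP-2 cells (187 of 4824), 0.640% of MPP-3 and 0.283% of MPP-4 cells. In G1 cells of the 3 libraries with enough of both classes the shares were 2.83 ± 0.309% in HSC and 8.30 ± 3.49% in MPP-2, against 2.97 ± 0.241% and 4.01 ± 1.27% over all cells of those libraries. Of the 36 cells with 3 or more members 35 were in MPP-2, and all 36 were in cluster 0.

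Genes most like each member were ranked by Pearson's r over 20 sums (5 libraries by 4 classes, centred within a library) among 7983 genes of at least 10 CPM, as a description. The closest to Gp9 were Car2 (r = 0.98), Zfpm1 (0.96) and Rab11b (0.94). Those to Pf4 were H1fx (0.93), Fundc2 (0.92) and Cisd2 (0.92), and those to Vwf were Slc18a2 (0.91), Selenom (0.87) and Traip (0.86). Itga2b was closest to C1qtnf12 (0.91), Apoe (0.91) and Sdsl (0.91), and Gp1bb to Car1 (0.85), Pcbd2 (0.85) and Cox20 (0.84). Selp was closest to Muc13 (0.79), Tfpi (0.78) and Creg1 (0.78), and Rap1b to Wls (0.96), S100a6 (0.95) and Mapk9 (0.95).

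The fixed lists were compared between all cells and G1 cells of the same 3 libraries. Over all cells 11 of 28 surface and granule genes were higher in HSC in every library and 2 in MPP-2, and in G1 6 and 8 were. Of the 12 transcription factors 9 and 1 were over all cells and 3 and 6 in G1. Of the 16 integrin and Rap1 genes 13 and 1 were over all cells and 6 and 4 in G1. Beside these stand 56.0% and 20.7% of the 11905 genes over all cells and 30.5% and 14.4% in G1. The median log2 ratio of HSC over MPP-2 was 0.27, 0.65 and 0.39 in these lists over all cells and -0.24, -0.17 and 0.027 in G1, beside 0.28 and 0.12 over the 11905 genes. With all 5 libraries, 8 surface and granule genes, 9 transcription factors and 10 integrin and Rap1 genes were higher in HSC in every library over all cells, beside 27.6% of genes. Gata1 had 3.39 ± 2.29 CPM in HSC and 10.8 in MPP-2 over all cells, and in G1 it was higher in MPP-2 in 3 of 3 libraries.

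In AML against PBS the question was whether host HSPCs in the leukemic BM differed in these genes. None of the 7 was called by edgeR's quasi-likelihood test over all LSK cells, where 0.16% of 14364 genes were (23 genes). At an unadjusted p under 0.05 there were 3 members (Gp9, Gp1bb and Selp), beside 10.5% of all genes. DESeq2 and limma-voom called no member either. Libraries of the groups did not overlap for 3 members. AML was lower for Gp9 and Gp1bb and higher for Selp, beside 13.7% of genes lower and 16.0% higher.

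Gp9 had 40.3, 29.1 and 34.0 CPM in PBS and 8.74 and 21.5 CPM in AML, a log2 fold change of -1.06 ± 0.29 (SE; adjusted p = 0.208). Both AML libraries lay below the PBS libraries, and AML replicate 1 the most, from 17 UMIs. Without AML replicate 3 the fold change was -1.98 and edgeR's adjusted p 0.0169, a fit in which AML is the 17 UMIs of AML replicate 1 alone and that library is assumed to vary as the PBS libraries do. Without AML replicate 1 it was -0.71 with an adjusted p of 0.746. Over 19 alternatives the adjusted p ran from 0.00341 to 0.930, and 3 of them called Gp9, the one with a single AML library included. Its fold change was -0.80 where the 4 classes were weighted equally in every library and -0.53 in G1 cells. The class makeup moves with treatment: HSC cells were 20.5 to 23.9% of PBS libraries and 3.32 and 13.7% of AML libraries, and G1 cells 55.9 to 58.2% against 14.7 and 49.0%. Sums over all LSK cells cannot tell fewer cells of a class from less RNA per cell.

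Gp1bb had 2.37, 2.31 and 2.46 CPM in PBS and 1.03 and 1.09 in AML, where it rested on 2 and 30 UMIs (log2 fold change -1.18 ± 0.43, edgeR adjusted p = 0.364). Selp had 5.57, 4.33 and 4.57 CPM in PBS and 7.71 and 7.57 in AML (0.62 ± 0.27, adjusted p = 0.443), the one member with a positive estimate. The remaining 4 overlapped between the groups. Pf4 had 98.1, 81.0 and 122 CPM in PBS and 88.4 and 94.7 in AML (-0.17 ± 0.25). The log2 fold changes of Itga2b, Vwf and Rap1b were -0.46 ± 0.36, -0.69 ± 0.46 and -0.23 ± 0.23. In AML replicate 1 Itga2b was 6 UMIs and Vwf 1 UMI, and leaving out single libraries gave -1.85 to -0.12 for Itga2b, -2.19 to -0.43 for Vwf and -0.35 to -0.10 for Rap1b, the lowest without AML replicate 3 and, for Itga2b and Rap1b, the highest without AML replicate 1. By edgeR the adjusted p of these 4 lay from 0.590 to 0.826, which does not show that the levels were alike.

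**Figure D5:**
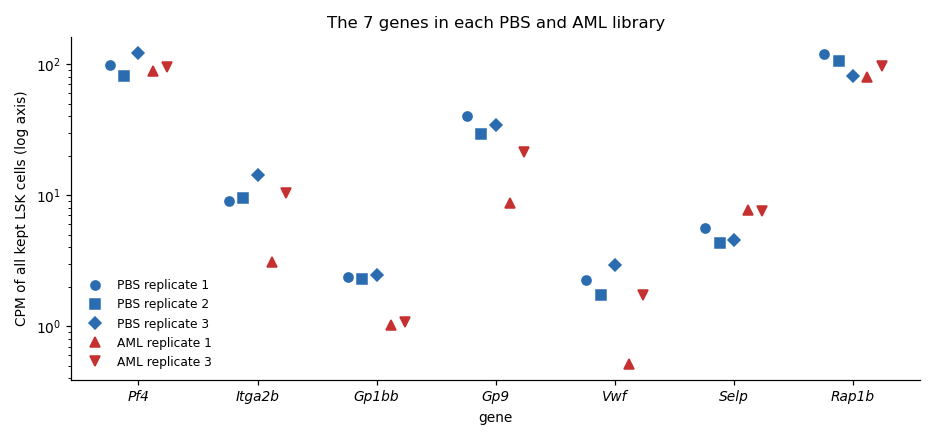
CPM over all kept LSK cells (y axis, log scale) of each gene (x axis), 1 point per library. The 2 AML points of Gp9 (8.74 and 21.5 CPM) and Gp1bb lie below the 3 PBS points and those of Selp lie above, while the other 4 genes overlap.

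Within classes no member was called in any fit, by edgeR or by DESeq2. In HSC 0.178% of 10668 genes were called and 6 members could be tested. Selp alone had an unadjusted p under 0.05 there, beside 4.16% of genes, at 6.23, 3.42 and 5.07 CPM in PBS and 16.3 and 13.2 CPM in AML (log2 fold change 1.23 ± 0.50, edgeR adjusted p = 0.992). The value of 16.3 CPM was 1 UMI. In MPP-2 0.0399% of 12518 genes were called, and Gp9 (-0.91 ± 0.32) and Gp1bb (-0.98 ± 0.39) passed the unadjusted threshold, beside 7.56% of genes. Gp9 there was 10 UMIs in AML replicate 1, its libraries overlapped between the groups, and leaving out AML replicate 1 or AML replicate 3 gave -0.59 or -1.97. In MPP-3 0.0486% of 10294 genes were called and Gp9 alone passed it (-1.18 ± 0.44), beside 7.39%. It rested on 2 UMIs each in AML replicate 1 and PBS replicate 2, its libraries overlapped, and leaving out PBS replicate 1 or AML replicate 3 gave -0.70 or -2.09. In MPP-4 0.0325% of 12305 genes were called and no member passed it, beside 5.93%. Gp1bb had too few counts for a test in HSC, and Gp1bb and Vwf had too few in MPP-3 and MPP-4. The AML effect in HSC against that in MPP-2 was called for 0.487% of 11905 genes and for no member, and no member had an unadjusted p under 0.05, beside 9.11% of genes. For Gp9 that difference was 0.32 ± 0.21 and for Selp 0.74 ± 0.43 (edgeR adjusted p = 0.700 and 0.633).

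No gene of the 3 fixed lists was called in AML either. Of the surface and granule genes 22 could be tested and 11 had an unadjusted p under 0.05, beside 10.5% of all genes, with a median log2 fold change of -0.71 beside -0.031 over all genes. Within classes that median was -0.20 in HSC (3 of 16 genes under the unadjusted threshold), -0.40 in MPP-2 (5 of 19), -0.28 in MPP-3 (4 of 11) and -0.43 in MPP-4 (5 of 14). Over all genes of these classes it was -0.030, -0.023, -0.014 and -0.018, with 4.16, 7.56, 7.39 and 5.93% of genes under that threshold. By mean level its first 3 were Rgs18, a regulator of G protein signalling in platelets (157 ± 29.8 CPM in PBS, 89.8 ± 28.1 in AML, -0.81 ± 0.27), Plek, the kinase C substrate pleckstrin (71.2 ± 15.1 and 72.6 ± 3.39), and the G protein subunit Gng11 (80.7 ± 0.904 and 30.0 ± 14.8, -1.38 ± 0.28, edgeR adjusted p = 0.077). Transcription factors had a median of -0.32 over 12 genes, 3 of them under the unadjusted threshold. Their first 3 were Mef2c (472 ± 83.6 and 547 ± 140.5 CPM), Runx1 (203 ± 34.9 and 322 ± 78.0) and Meis1 (215 ± 21.0 and 159 ± 24.0). The integrin and Rap1 genes had a median of 0.0055 over 16 genes, 1 of them under that threshold, with Rap1a (213 ± 33.0 and 205 ± 29.3), Tln1 (152 ± 32.5 and 160 ± 3.37) and the Rap1 exchange factor Rasgrp2 (132 ± 16.6 and 187 ± 41.03) at the top. The 10 fixed megakaryocyte markers, which overlap the first list, summed to 39.6 to 49.7 CPM in PBS and 21.6 to 32.1 CPM in AML. Erythroid markers summed to 129 to 514 CPM in PBS and 76.1 to 250 CPM in AML, and their part in the Gp9 difference was not tested.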

How the data were processed

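Droplet libraries of sorted LSK cells (Chromium GEM V3 chemistry) were processed by the authors with Cell Ranger 7.0.1, R 4.2.2 and Seurat 4.3.0 on GRCm38 (mm10), per the submitters' processing notes. The deposited matrices hold raw UMI counts. The deposited cell table gives the authors' mitochondrial and ribosomal percent of UMIs, a module score per class and per phase, a class, a phase and a cluster per cell. A further 11 columns of it were not used. The sources used here name no cell filter and no doublet removal, and no doublet caller was run. Replicates are separate samples in the labels.

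UMI counts were summed per library, and per library and class or cluster with at least 20 cells. CPM is per plain total. AML against PBS was tested with edgeR 4.0.16 (TMM, filterByExpr, quasi-likelihood F test, Benjamini-Hochberg, threshold 0.05) under R 4.3.3, with 3 PBS and 2 AML libraries, since the cell table holds no cells of AML replicate 2. DESeq2 1.42.0 and limma 3.58.1 were alternatives. On simulated data for all LSK cells (14434 genes) 46.0% of genes changed by 1 and 99.0% of those changed by 2 on the log2 scale were recovered, with 11 false calls. For MPP-2 (12574 genes) these were 29.0 and 96.0%, with 1 false call, and for the AML effect in HSC against MPP-2 (11748 genes) 68.5% of those changed by 2, with 4 false calls. The changed genes were drawn only above a minimum level, and all genes were given the same dispersion. Gp1bb and Vwf lay below that level in each simulation, and Itga2b and Selp in that of HSC against MPP-2. The recovery does not cover those members there. HSC over MPP-2 ratios used a pseudocount of 1 CPM. Members and lists were chosen with earlier results of these data known. Genes are named as all 7 members in each comparison, the 3 genes most like each, and from each list the genes called and the 3 with the highest mean level. List genes named beyond these in the cells rich in Pf4, and Gata1 between classes, were chosen after their values were seen. In the cells rich in Pf4 they are Cavin2, Treml1, Gp6, Tubb1, Mpig6b, Myl9, Ppbp, Gata1, Zfpm1, Lyl1, Nfe2 and markers of other cell types.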

Additional observations from a re-analysis of the deposited data

Results flagged for a closer look

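Barcodes outside the cell table, among them all 17055 of AML replicate 2, also held UMIs of the members, and some AML values lay above all 3 PBS libraries. Gp9 went the other way, at 14.7, 15.5 and 22.6 CPM in AML replicates 1 to 3 and 31.7, 29.4 and 26.2 CPM in PBS. Pf4 had 70.7, 44.7 and 29.4 CPM in AML replicates 1 to 3. Itga2b had 12.5 and 23.3 CPM and Selp 9.86 and 14.0 CPM in AML replicates 1 and 2. Gp1bb had 0.846 and 0.707 CPM in AML replicates 2 and 3, and Rap1b had 122 CPM in AML replicate 2 but 73.3 CPM in AML replicate 1, below all 3 PBS libraries. The other AML values of Itga2b, Gp1bb, Selp and Rap1b, and all of Vwf, lay within the PBS range. Depth differed between the groups: barcodes outside the cell table had a median of 944, 320 and 3748.5 UMIs in AML replicates 1 to 3. In PBS replicates 1 to 3 it was 3194, 8396.5 and 3857.5. Of the barcodes of AML replicate 2, 6900 are shared with another library and 6798 have more UMIs elsewhere, so they were not set in a comparison as a whole. Of the barcodes of AML replicate 2, 106 entered 1 alternative fit with an own cell filter, and 75 of these are shared with another library too. Gp9 was 2 UMIs in those 106 and had an adjusted p of 0.090 by edgeR in that fit.

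In G1 cells, HSC minus MPP-2 for Selp was above 0 in both PBS libraries (mean 1.00 CPM) and below 0 in the single AML library with enough cells (-3.90 CPM). That difference between PBS and AML was not tested.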

How the results depend on the processing

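No member was called within a class or between classes under any alternative. Over all LSK cells Gp9 was called in 3 of 19, which gave 1 called member where the main count was 0: without a filter on low counts, with a replicate block (adjusted p = 0.0168) and without AML replicate 3, which leaves 1 AML library assumed to vary as the PBS libraries do, so that leaving out a library gave 0 to 1. Called genes over all LSK cells numbered 23, 83 by DESeq2, 392 without a filter, 91 with the block, 9 thinned, 6 with equal class composition, and 2, 8 and 419 where PBS replicate 1, PBS replicate 2 or AML replicate 3 was left out. For HSC, MPP-2, MPP-3, MPP-4 and the difference HSC minus MPP-2 the counts were 19, 5, 5, 4 and 58 and ran from 0 to 29, 0 to 156, 2 to 166, 0 to 75 and 15 to 46. Deviations of same-numbered PBS and AML libraries from their group means had r = -0.057 and -0.055. With 2 AML libraries the deviations of one are the reverse of the other's. These values therefore cannot show whether same-numbered libraries share more than a number. The AML log2 fold changes of Pf4 turned to 0.19 thinned, 0.060 without the top 5% of UMIs and 0.32 in G1, and that of Itga2b to 0.33 in G1. In HSC Vwf turned to -0.12 by DESeq2, -0.075 with the block and -0.046 with a score lead of at least 0.05, and Itga2b to -0.072 with the block. With that lead Pf4 and Vwf turned to 0.18 and 0.050 in MPP-2. In MPP-4 Pf4 and Itga2b turned to 0.17 and -0.073 by DESeq2, 0.057 and -0.44 with the block and 0.046 and -0.11 with the lead. Leaving out single libraries gave for Pf4 -0.28 to 0.078 over all LSK cells, -0.88 to 0.053 in HSC, -0.41 to 0.15 in MPP-2, -0.30 to 0.97 in MPP-4 and -0.38 to 0.085 for HSC minus MPP-2. For Vwf it gave -7.21 to 0.17 in HSC, -1.31 to 0.097 in MPP-2 and -6.45 to 0.47 for the difference, the lowest from 0 UMIs in AML replicate 1, which sets no bound. For Itga2b it gave -0.0048 to 0.83 in HSC and -0.55 to 0.44 in MPP-4, and for the difference -0.14 to 0.40 (Gp9) and -3.83 to 0.41 (Gp1bb).

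Members with a higher mean in HSC than in MPP-2 numbered 5, and 1 in G1 cells, 1 in cluster 0, 3 with the score lead, 2 with classes rebuilt from markers, 1 by UMIs per cell, 1 in G1 cells of cluster 0, 3 without the richest cell of each library and class, 2 in G1 cells without the Pf4-rich cells, 4 in S and G2M cells, without AML replicate 1 and over the 3 libraries that enter G1, 6 without the Pf4-rich cells and 5 in the other 7 settings. Log2 ratios that turned, in the order Itga2b, Gp9, Vwf, Rap1b, were -1.36, -0.86, -0.53 and -0.42 in G1 (3 libraries) and -1.80, -1.22, -0.75 and -0.72 in G1 of cluster 0. In the order Itga2b, Gp9, Selp, Rap1b they were -0.85, -0.22, -0.34 and -0.18 in cluster 0 and -0.24, -0.18, -0.55 and -0.44 by UMIs per cell. Rebuilt classes gave -0.70 (Itga2b), -0.64 (Gp9) and -0.073 (Rap1b), the lead -0.49 (Itga2b) and -0.048 (Selp), and S and G2M cells -0.33 (Selp). Without the richest cell Gp9 had -0.19 and Selp -0.63. Without the Pf4-rich cells Pf4 had 0.57, and in G1 Itga2b, Gp9 and Rap1b had -0.83, -0.69 and -0.29. Over all cells of the 3 libraries that enter G1 Itga2b stood at -0.19 and the other members kept their sign, so that its sign over all 5 libraries rests on AML replicate 1. Leaving out single libraries gave -0.13 to 0.72 for Itga2b. Members found in a larger share of HSC than MPP-2 cells numbered 6 thinned, 4 of them without AML replicate 1 (not Pf4 and Itga2b), and 2 unthinned. UMIs per cell, S and G2M cells, G1 cells of cluster 0, G1 cells in AML against PBS, the 3 libraries that enter G1, and the settings on the richest and Pf4-rich cells and on shared barcodes were chosen after seeing the data. Where a value turned, the cause was not tested.

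Depth limits Vwf and Gp1bb most, at 207 and 188 UMIs in all, and the HSC class of AML replicate 1, where every member but Pf4 and Rap1b had at most 2 UMIs.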
